A study of Mus musculus with 38 samples.

Results

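The HSP70 and HSP110 chaperone genes examined here were Hspa8, Hspa1a, Hspa1b, Hspa5, Hspa9 and Hspa14 of the HSP70 family and Hsph1, Hspa4 and Hspa4l of the HSP110 family. A binding site was assigned to a gene when its interval lay within 1 kb of, or over, any transcript start in the GENCODE M21 basic annotation of mm10. Of the 9 genes, 5 had an HSF1 site (5 of the 1726 HSF1 sites) and 6 had an HSF2 site (6 of the 2135 distinct HSF2 sites). The same rule assigned an HSF1 site to 4.53% and an HSF2 site to 8.32% of 21951 protein-coding genes. Hspa8, Hspa1a, Hspa1b, Hspa4l and Hsph1 had both, Hspa9 had an HSF2 site only, and Hspa4, Hspa5 and Hspa14 had neither. Widening the window to 5 kb gave none of these 3 genes a site. Dropping sites whose signal over asynchronous and mitotic cells averaged under the list median left 2 genes with an HSF1 site, Hspa8 and Hsph1. All 6 genes kept their HSF2 site.

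The data are CUT&Tag, in which a transposase is tethered to an antibody and inserts sequencing adapters beside the bound protein, from JM8 mouse embryonic stem cells. The series has 38 libraries in 19 conditions, 2 per condition, and averaged values were used for 12 conditions. Mitotic (M) cells had been given nocodazole at 50 ng/ml for 6 h and collected by shake-off, while asynchronous (A) cells had not been treated. Endogenous HSF1, HSF2 and SOX2 were measured in wild type JM8 cells. Tagged proteins were measured in JM8 cells whose Hsf2 locus had been deleted with Cas9 and which overexpressed a stably integrated PiggyBac construct. Full-length Halo-HSF2 was probed with anti-HSF2 and, carrying an HA tag, in separate libraries with anti-HA. Halo-H2DBD, the DNA-binding domain of HSF2 with its nuclear localization signals, was probed with anti-HA. The constructs are driven by the EF1α promoter, not by Hsf2 regulatory sequence, and the knockout cells were picked as colonies, so effects of a line and of its construct cannot be told apart. Each value is, by its column name, the authors' mean over the libraries of a condition, in spike-in scaled coverage per base over a whole interval. The tables carry no read totals and keep no single library apart, so no standard deviation can be given and no test was made. The paper lists read totals for the anti-HA libraries of both tagged proteins, which differ several-fold and were not used here, while the part of its table before these was not legible in the copy at hand, so the depth of the other libraries used is not known here. The constructs were measured only over the intervals called for endogenous HSF2.

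HSP70 proteins bind exposed hydrophobic stretches of unfolded clients and release them in a cycle driven by ATP, which J proteins stimulate and HSP110 proteins reset as nucleotide exchange factors. Heat shock factors bind heat shock elements, arrays of inverted GAA units, as multimers, and the genes of cytosolic HSP70 are among their best known targets. Not every member belongs to this response, since BiP in the endoplasmic reticulum is induced by a separate stress pathway.

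The regulatory sequences under the sites were searched for the element GAANNTTCNNGAA or its mirror form TTCNNGAANNTTC, on both strands, and matches are descriptions of the letters only. Of the 6 HSF2 sites, 3 held at least 1 exact element, against 14.1% of 2131 distinct HSF2 sites with reference sequence. Of the 5 HSF1 sites, 2 held one, against 16% of 1719 HSF1 sites. Hspa8 had 2, in the untranslated part of its first exon, at chr9:40801063-40801075 and chr9:40801221-40801233 on the plus strand, 79 and 237 bp downstream of the first transcript start. Hsph1 had 1, on the minus strand at chr5:149636288-149636300, 38 bp downstream of its most upstream start and also in untranslated exon. They are shown because these genes carried the highest endogenous HSF1 and HSF2 signals per base of the family. The element is in capitals, with 8 bases of GRCm38 on either side.
Hspa8, 79 bp downstream: gcgagcgtGAAAGTTCCAGAAcgccgcgg
Hspa8, 237 bp downstream: cggcacccTTCTGGAAGGTTCtaagacag
Hsph1, 38 bp downstream: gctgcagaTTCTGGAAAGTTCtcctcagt

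Near the starts of Hspa1a and Hspa1b, the stress-inducible pair of cytosolic HSP70 genes, no exact element was found. Each had 2 overlapping matches in which 1 of the 9 fixed bases differed, 109 and 114 bp upstream of the start. The promoters of RefSeq (GRCm38.p6, minus strand), which had entries for 7 of the 9 genes and none for Hspa8 and Hspa9, are printed for both to show how little they differ. They run from chr17:34972157-34972406 for Hspa1a and chr17:34959239-34959488 for Hspa1b, and capitals mark the stretch covered by the overlapping matches. The 248 bases upstream of Hsph1 (chr5:149636339-149636586, minus strand) are shown beside them because they hold a stretch of the same kind, in which 2 matches with 1 base different overlap 26 and 31 bp upstream of the start.
Hspa1a promoter: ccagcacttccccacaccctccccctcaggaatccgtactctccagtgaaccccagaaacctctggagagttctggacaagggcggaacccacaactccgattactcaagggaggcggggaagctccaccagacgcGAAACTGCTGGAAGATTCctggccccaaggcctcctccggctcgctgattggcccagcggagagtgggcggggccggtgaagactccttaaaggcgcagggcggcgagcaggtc
Hspa1b promoter: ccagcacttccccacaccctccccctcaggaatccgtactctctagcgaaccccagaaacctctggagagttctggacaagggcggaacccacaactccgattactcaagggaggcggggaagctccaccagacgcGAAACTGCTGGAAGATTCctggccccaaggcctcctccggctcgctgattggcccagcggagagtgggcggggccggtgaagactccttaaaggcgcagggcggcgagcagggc
Hsph1 promoter: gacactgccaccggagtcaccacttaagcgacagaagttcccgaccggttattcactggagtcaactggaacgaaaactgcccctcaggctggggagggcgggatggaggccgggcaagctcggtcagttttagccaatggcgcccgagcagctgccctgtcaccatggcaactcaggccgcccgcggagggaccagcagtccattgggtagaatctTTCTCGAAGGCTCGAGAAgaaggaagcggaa

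The 250 bases upstream of Hspa1a and Hspa1b differed at 3 positions (98.8% identical), and their coding sequences of 1923 bases at 11 (99.4% identical). Among 32851 RefSeq promoters of the same length, 0.466% held an exact element and 6.08% a match with up to 1 base different. Over longer windows the looser match was common, in 49.2% of the HSF2 sites and within 1 kb of a start in 45.8% of 21938 protein-coding genes. An exact element lay within 1 kb of a start in 4.35% of these genes. The shares for the looser match count any single match. How often 2 such matches overlap, as upstream of Hspa1a, Hspa1b and Hsph1, was not counted. The sequence shared by Hspa1a and Hspa1b also bears on their signal. Of the stretches of 32 bases in the HSF2 interval of Hspa1a, 45.2% occur once in the genome and 47.0% occur 2 times, and at Hspa1b the shares are 54.3% and 36.2%. Reads were not filtered on unique placement, so the values of these genes are uncertain and not independent of each other. The share of unique stretches was 80.9% at Hspa8, 97.7% at Hsph1, 99.8% at Hspa9 and 100% at Hspa4l.

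**Figure D1:**
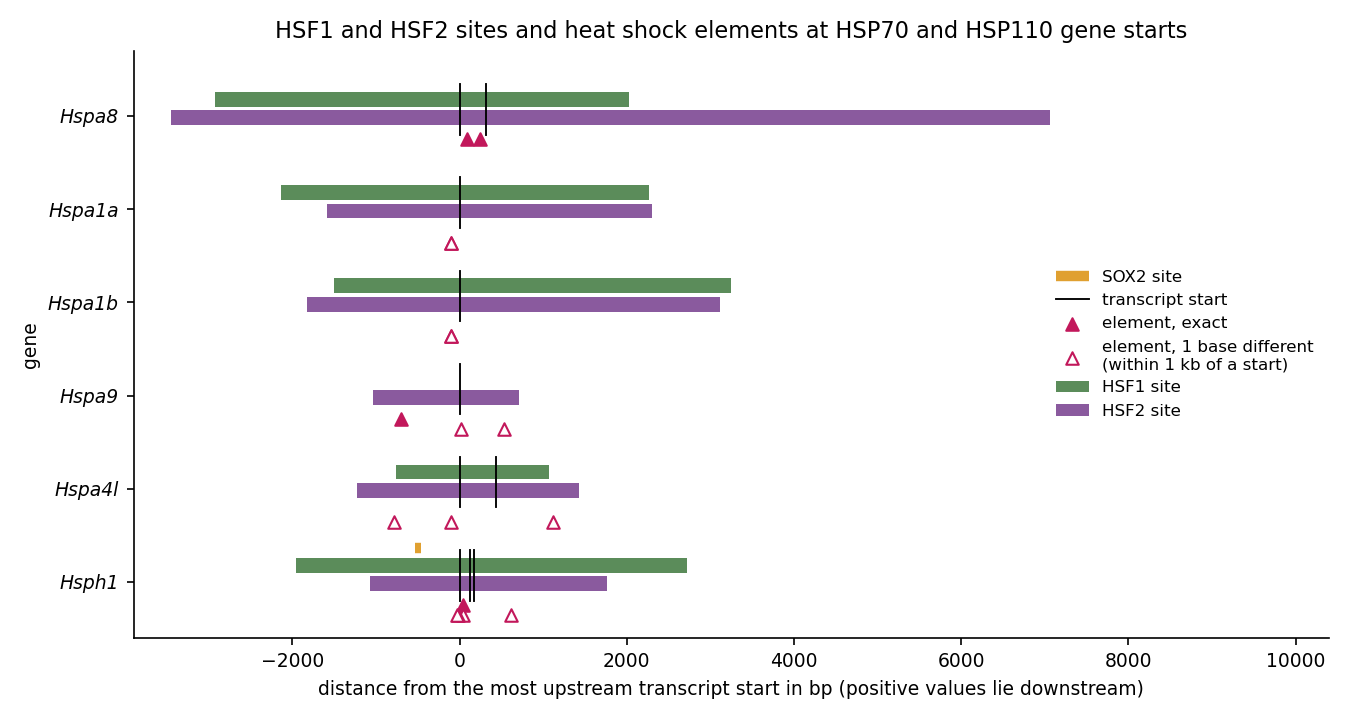
Position of the HSF1 (green) and HSF2 (purple) intervals, transcript starts (black lines) and heat shock elements (triangles) relative to the most upstream transcript start of each gene, in bp. Every interval covers a start, open triangles are matches with 1 base different, the yellow bar is the SOX2 site, and exact elements (filled triangles) lie close to the starts of Hspa8 and Hsph1 and 706 bp upstream at Hspa9.

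Hspa8 encodes HSC70, the constitutive HSP70 of the cytosol. It lies on the plus strand of chromosome 9 (40800984 to 40810087). Its HSF1 interval spans 4961 bp (40798054 to 40803014), from 2930 bp upstream of the start into the gene. The HSF2 interval is the longest of the family at 10517 bp (40797528 to 40808044) and also takes in 3 small nucleolar RNA genes lying within Hspa8. HSF1 signal was 34.8 in A and 18.5 in M, ranks 43 and 54 of 1726. HSF2 signal was 74.3 in A and 79.3 in M, ranks 14 and 20 of 2135. Both factors thus ranked high at Hspa8 in both phases, while the tagged proteins ranked lower per base. Halo-HSF2 with anti-HSF2 gave 1.45 in A and 1.54 in M, ranks 1180 and 1623. With anti-HA it gave 2.19 and 2.25, ranks 514 and 904. Halo-H2DBD gave 2.21 and 1.61, ranks 654 and 1225. These ranks depend on the width of the interval, against a list median of 2395 bp, and a sum over the interval favours wide ones. By summed signal (mean times width) Hspa8 ranked 3 and 1 for HSF2, 65 and 186 for anti-HSF2, 29 and 43 for anti-HA and 45 and 72 for Halo-H2DBD. A further HSF1 interval lay 3459 bp from a start, at 40804761 to 40807453, inside the gene and under the same HSF2 interval, with a signal of 5.98 in A and 6.04 in M.

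Hspa1a lies on the minus strand of chromosome 17 (34969190 to 34972156), beside Hspa1b (34956436 to 34959238). The HSF1 interval of Hspa1a (34969888 to 34974289) had a signal of 2.97 in A and 2.77 in M, ranks 1422 and 1201, the lowest of the family per base in both phases. By summed signal it ranked 787 and 520, above Hspa4l at 1157 and 803. At Hspa1b (34955997 to 34960744) the HSF1 signal was 6.28 and 3.25, ranks 856 and 1071, and by summed signal 236 and 344. Per base, the HSF2 intervals of both genes ranked much higher in their list than the HSF1 intervals did in theirs. HSF2 signal was 12.3 in A and 15.9 in M at Hspa1a (34969854 to 34973738), ranks 257 and 149, and 14.2 and 12.3 at Hspa1b (34956119 to 34961062), ranks 201 and 262. A further HSF1 interval, 4821 bp from the start of Hspa1b (34948658 to 34954417), gave 4.82 in A and 2.84 in M (log2 ratio −0.77). The Hspa1a intervals also contain a start of Hspa1l, a neighbouring HSP70 gene, so their signal cannot be given to one gene alone. Per base, tagged proteins were below the list median at both genes, except at Hspa1b in A with anti-HSF2. Halo-HSF2 with anti-HSF2 gave 1.28 in A and 0.664 in M at Hspa1a (ranks 1352 and 2043) and 1.74 and 0.775 at Hspa1b (ranks 946 and 2003). With anti-HA it gave 0.615 and 0.868 at Hspa1a (ranks 1887 and 1972) and 0.502 and 1.00 at Hspa1b (ranks 1977 and 1904). Halo-H2DBD gave 1.28 and 0.933 at Hspa1a (ranks 1461 and 1837) and 1.10 and 1.16 at Hspa1b (ranks 1654 and 1649). By summed signal some of these were in the upper part of the list, such as Hspa1a in A at ranks 813 for anti-HSF2 and 851 for Halo-H2DBD. Hspa1b by summed signal ranked 295 in A for anti-HSF2, and 749 in A and 812 in M for Halo-H2DBD.

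Among the HSP70 genes of other compartments, only Hspa9 had a site. Hspa9 encodes mortalin, the mitochondrial HSP70, and lies on the minus strand of chromosome 18 (34937414 to 34954357). Its HSF2 interval of 1739 bp (34953649 to 34955387) had a signal of 4.77 in A and 8.24 in M, ranks 916 and 608. By summed signal this interval ranked lower, 1277 in A and 1070 in M, of 2135. An exact element lies in it from 34955051 to 34955063, 706 bp upstream of the start. Halo-HSF2 with anti-HSF2 gave 1.36 in A and 3.25 in M (ranks 1277 and 679), whereas with anti-HA it gave 1.62 and 1.41 (ranks 852 and 1592). Halo-H2DBD gave 1.95 and 1.56 (ranks 817 and 1275). Endogenous HSF2 at Hspa9 was thus the lowest of the 6 sites in A and the lowest but 1 in M, where Hspa4l was lower. Hspa5, which encodes BiP of the endoplasmic reticulum (chromosome 2, plus strand, 34771970 to 34777547), had no site. Hspa14, which encodes a ribosome-associated HSP70 (chromosome 2, minus strand, 3488850 to 3512814), had none either. Within 1 kb of their starts, neither held an exact element or one with 1 base different.

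The HSP110 genes differed widely. Hsph1, which encodes HSP105, lies on the minus strand of chromosome 5 (149614287 to 149636376). Its HSF1 interval (149633621 to 149638289) had a signal of 13.7 in A and 8.20 in M, ranks 214 and 256. Its HSF2 interval of 2835 bp (149634578 to 149637412) had the highest HSF2 signal per base of the family, 114 in A and 96.6 in M, ranks 6 and 14. By summed signal it ranked 10 and 11, behind Hspa8. Halo-HSF2 with anti-HSF2 gave 1.24 and 2.55 there (ranks 1384 and 999), and with anti-HA 1.55 and 2.01 (ranks 909 and 1075). Halo-H2DBD gave 1.10 and 2.55 (ranks 1658 and 610). Hsph1 was also the only 1 of the 9 genes with a SOX2 site within 1 kb of a start, against 4.99% of protein-coding genes. This interval of 74 bp (149636798 to 149636871), 460 bp from the start, lies inside both heat shock factor intervals. Its SOX2 signal was 17.0 in A and 19.7 in M, ranks 4336 and 4731 of 15081 SOX2 sites. A second HSF2 interval, 3688 bp from a start of Hsph1 (149640026 to 149643015), had a signal of 9.86 in A and 9.43 in M. An HSF1 interval 4230 bp from a start of Hsph1 (149640568 to 149642830) gave 6.09 in A and 2.69 in M (log2 ratio −1.18).

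Hspa4l, which encodes another HSP110 protein, lies on the plus strand of chromosome 3 (40744495 to 40796103). HSF1 signal over its interval (40744673 to 40746500) was 4.56 in A and 4.73 in M, ranks 1136 and 710. HSF2 signal (40744201 to 40746858) was 8.40 in A and 4.86 in M, ranks 429 and 1349. Halo-HSF2 with anti-HSF2 gave 0.695 in A and 0.738 in M (ranks 1868 and 2018), and with anti-HA 0.603 and 2.10 (ranks 1896 and 992). Halo-H2DBD gave 0.726 and 1.59 (ranks 1970 and 1246). In A, all 3 construct signals at Hspa4l were thus low, with 12.5% of sites lower for anti-HSF2, 11.2% for anti-HA and 7.73% for Halo-H2DBD. Hspa4, the remaining HSP110 gene (chromosome 11, minus strand, 53259814 to 53300457), had no site, and neither an exact element nor one with 1 base different within 1 kb of its start.

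**Figure D2:**
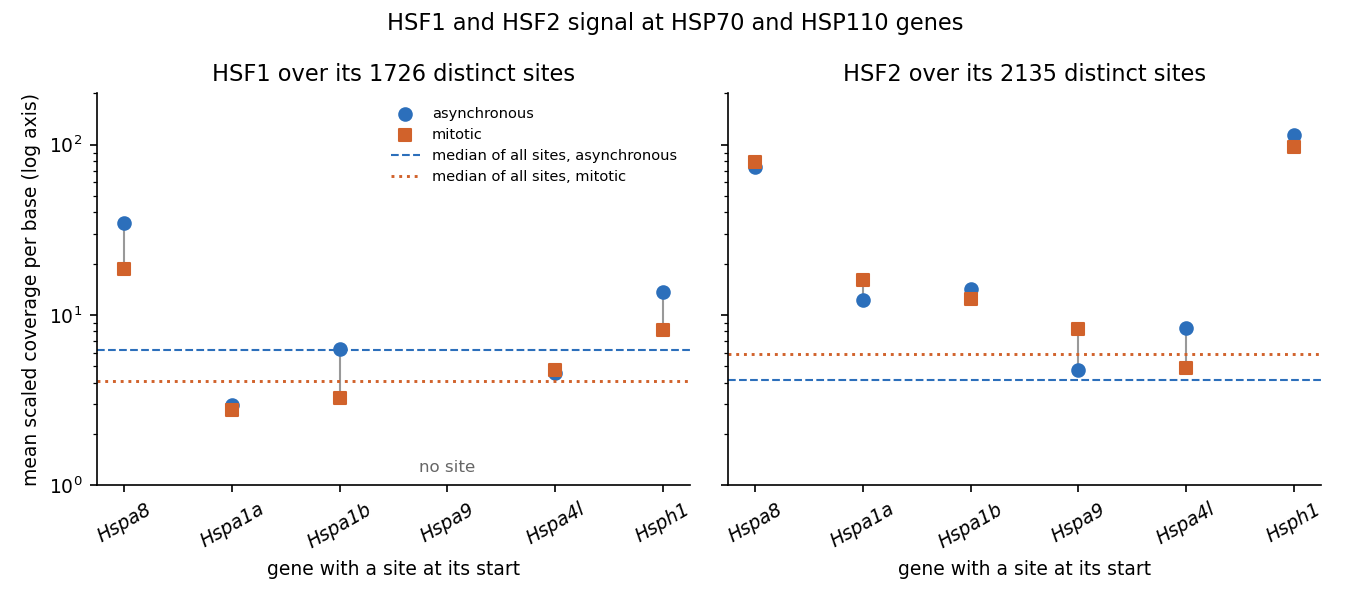
HSF1 (left) and HSF2 (right) signal at each gene with a site, in scaled coverage per base on a log axis, for asynchronous (circles) and mitotic (squares) cells, each point being 1 averaged value. Dashed and dotted lines are the medians of all sites of the list, 6.21 in A and 4.07 in M for HSF1 and 4.14 and 5.85 for HSF2, and Hspa8 and Hsph1 stand far above those for HSF2.

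Within the family, the order of HSF2 signal per base in A was Hsph1, Hspa8, Hspa1b, Hspa1a, Hspa4l and Hspa9, and all 6 sites lay above the list median of 4.14. In M the order was Hsph1, Hspa8, Hspa1a, Hspa1b, Hspa9 and Hspa4l, and 5 of 6 lay above the median of 5.85. For HSF1 the order per base in A was Hspa8, Hsph1, Hspa1b, Hspa4l and Hspa1a, with 3 of 5 above the median of 6.21. In M the order was Hspa8, Hsph1, Hspa4l, Hspa1b and Hspa1a, with 3 of 5 above the median of 4.07. By summed signal the members' median HSF1 rank was 236 in A and 344 in M, against 856 and 710 per base. Since the replicates were averaged in the tables, whether neighbours such as Hspa1a and Hspa1b differ beyond their spread is not known.

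The difference between phases is given as log2 M/A, the log2 of mitotic over asynchronous signal, without a pseudocount. It depends on the spike-in scaling, and each signal was also centred on its quartile of weakest sites. Centring would subtract −0.59 for HSF1, 0.71 for HSF2, 0.53 for Halo-HSF2 with anti-HSF2, 0.69 with anti-HA and 0.0027 for Halo-H2DBD. These weakest sites are called sites, not background, so centring also removes a change shared by all sites. A flip under centring shows that a value is smaller in size than the shift, and not which scaling is right. For HSF1, 4 of 5 genes had the lower signal in M, against 91.9% of all HSF1 sites. Their median was −0.74, with −0.62 over the list (quartiles −0.89 and −0.34). Hspa1b was at −0.95, Hspa8 at −0.91 and Hsph1 at −0.74, or −48.2%, −46.9% and −40.0% relative to the asynchronous signal. With the means of the deposited HSF1 site list, whose scaling is not stated, they were at −0.67, −1.59 and −1.48. Under centring they were at −0.35, −0.32 and −0.14. The other genes showed almost no difference before centring. Hspa1a was at −0.10, a direction that flips to 0.50 under centring. Hspa4l, at 0.05, had more signal in M, and was at 0.65 under centring. Its direction flips to −1.34 with the means of the site list. In the deposited score table, 93.3% of HSF1 sites had a lower log2 M/A than Hspa4l and 89.0% a lower one than Hspa1a.

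For HSF2, 3 of 6 genes had the higher signal in M, against 72.3% of all HSF2 sites. The members' median log2 M/A was −0.05, whereas the list median was 0.49 (quartiles −0.07 and 1.14). Hspa9 had the largest value of the family at 0.79. Centring subtracts the same 0.71 from every site, and as the largest value Hspa9 alone of the 6 genes stayed above 0, at 0.08. Hspa1a was at 0.38 and flips to −0.33 under centring. Hspa8 was at 0.09 and flips to −0.61. The genes with less HSF2 in M were Hspa1b at −0.20, Hsph1 at −0.24 and Hspa4l at −0.79, all on the same side of 0 under centring. Only 9.37% of HSF2 sites had a lower value than Hspa4l. Against the list median, 5 of the 6 genes lay lower, by −0.12 at Hspa1a, −0.40 at Hspa8, −0.70 at Hspa1b, −0.74 at Hsph1 and −1.29 at Hspa4l. Hspa9 lay 0.29 above it. The list median is not matched for signal, and the quartile of weakest sites had a median of 0.71. Among other chaperone sites with much HSF2 in A, Hsp90aa1 was at −0.33 and Hsp90ab1 at −0.03, but Stip1 at 0.69 and Hspd1 at 0.43. Whether signal level lies behind these values was not tested.

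**Figure D3:**
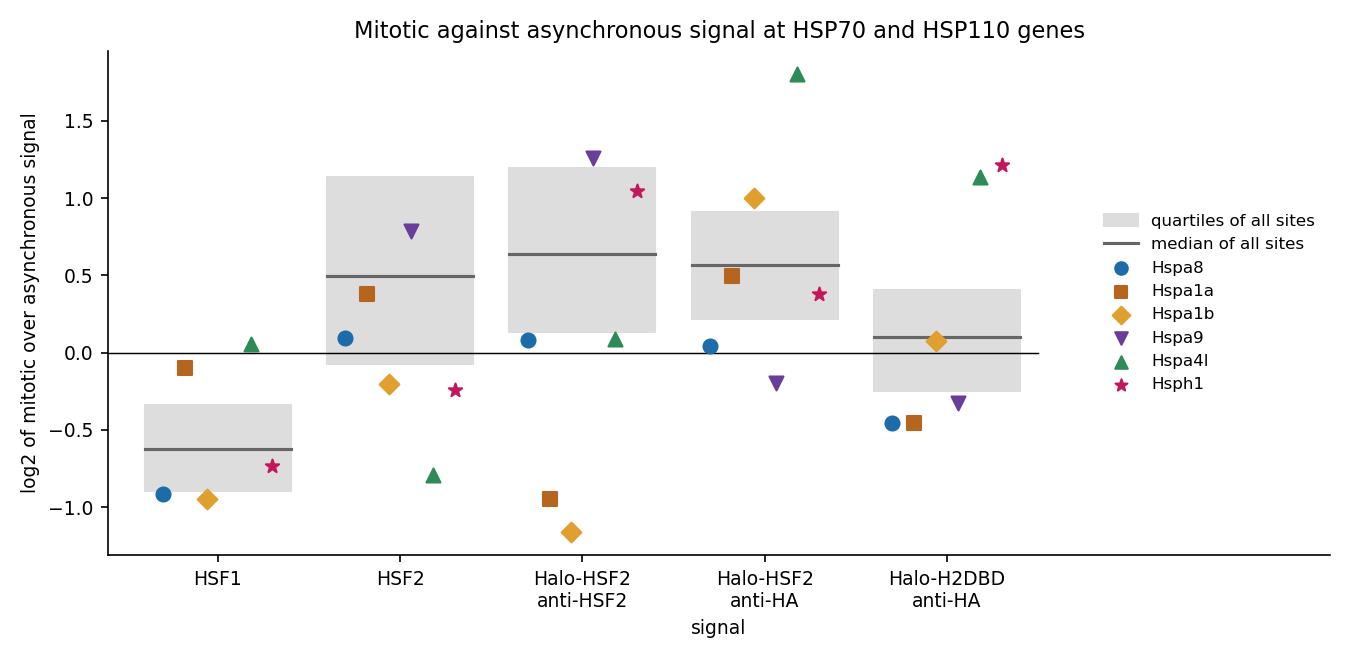
log2 M/A of each gene (points) for the 5 signals, beside the median and quartiles of all sites of the list. HSF1 values lie mostly below 0, and HSF2 values lie on both sides of it, where centring flips the direction of Hspa1a for HSF1, of Hspa8 and Hspa1a for HSF2, of Hspa8 and Hspa4l for anti-HSF2, and of Hspa8, Hspa1a and Hsph1 for Halo-HSF2 with anti-HA.

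At the 5 genes with both factors, the intervals of HSF1 and HSF2 overlap, at some genes only in part. The difference of their log2 M/A values, taken from means over whole intervals, compares the factors there. It was 1.01 at Hspa8, 0.75 at Hspa1b, 0.49 at Hsph1, 0.48 at Hspa1a and −0.85 at Hspa4l. HSF2 thus kept more of its asynchronous signal than HSF1 at 4 of 5 genes before centring, with a median of 0.49. This sign flips when both factors are centred, to a median of −0.81, as centring subtracts the same amount from every difference. Over 888 overlapping pairs in the whole series the median was 0.96, with 87.2% above 0, and it too flips when centred, to −0.34 with 35.9% above 0. Hspa4l had a lower difference than most pairs, with 3.27% below it, but its sign flips to 0.60 with the means of the deposited site lists. With those means the other genes stay above 0, at 1.71 for Hspa8, 1.24 for Hsph1, 0.53 for Hspa1a and 0.46 for Hspa1b, where the median over all pairs was 2.75. The HSF1 and HSF2 intervals of Hspa4l overlap over 1828 bp, the whole of the HSF1 interval. At Hspa8 the overlap is 47.2% of the HSF2 interval, and at Hsph1 it is 60.7% of the HSF1 interval. The further HSF1 interval under the HSF2 interval of Hspa8 had a log2 M/A of 0.01, against −0.91 for the one compared here.

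With the tagged full-length protein and anti-HSF2, 4 of 6 genes had the higher signal in M, against 79.7% of the sites. The members' median was 0.08, which flips to −0.44 under centring, and the list median was 0.64. Without Hspa1a and Hspa1b the members' median was 0.57, and with weaker sites dropped (signal averaged over both phases under the list median), which keeps only Hspa9, it was 1.26. Hspa9 at 1.26 lay above the upper quartile of the list, 1.19, and Hsph1 at 1.04 below it. Centred they were at 0.73 and 0.52, and with 1 added to each signal at 0.85 and 0.67. Hspa4l at 0.09 and Hspa8 at 0.08 were near 0 and flip to −0.44 and −0.45 under centring. Hspa1a at −0.95 and Hspa1b at −1.16 were at the low end of the list, with 3.21% and 2.17% of sites lower. With 1 added to each signal they were at −0.46 and −0.62. The sequence shared by Hspa1a and Hspa1b bears on these values.

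With anti-HA on the HA-tagged full-length construct, 5 of 6 genes had the higher signal in M, against 86.3% of the sites. The median was 0.44, which flips to −0.26 under centring, and the list median was 0.57. Hspa4l had the largest value, 1.80, with 98.3% of sites lower, from levels that were low in A, and it was 1.11 centred and 0.95 with 1 added to each signal. Hspa1b was at 1.00, with 0.31 centred and 0.42 with 1 added. Hspa1a at 0.50, Hsph1 at 0.38 and Hspa8 at 0.04 flip under centring, to −0.20, −0.31 and −0.65. Hspa9 was at −0.20. Hspa1a, Hspa1b and Hspa9 thus had opposite signs in the anti-HSF2 and anti-HA libraries, before any centring. These libraries differ in antibody and in construct, and whether antibody, construct, line or scaling lies behind these signs was not tested.

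For Halo-H2DBD, 3 of 6 genes had the higher signal in M, against 58.6% of the sites. The median was −0.12, which flips to 0.41 without Hspa1a and Hspa1b, and the list median was 0.10. Hsph1 was at 1.22 and Hspa4l at 1.13, with 98.5% and 97.7% of sites lower. With 1 added to each signal they were at 0.76 and 0.59. Both ratios came from levels under the list median of 1.64 in A, 1.10 at Hsph1 and 0.726 at Hspa4l. In M, Hsph1 at 2.55 was above the list median of 1.82, and Hspa4l at 1.59 was still below it. Hspa1b was near 0 at 0.08. Hspa9 was at −0.32, Hspa8 at −0.46 and Hspa1a at −0.46. Hspa4l and Hsph1 thus had less endogenous HSF2 in M but more anti-HA signal for both tagged proteins, although full-length Halo-HSF2 at Hsph1 flips under centring. Hspa1b also had less endogenous HSF2 and more full-length Halo-HSF2 with anti-HA in M, but almost no difference for Halo-H2DBD.

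Taken as medians over the genes, positions among the HSF2 sites differed between endogenous and tagged protein. Over the 6 genes, the median share of sites with lower signal in A was 89.3% for HSF2, but 38.4% for Halo-HSF2 with anti-HSF2, 34.5% with anti-HA and 27.0% for Halo-H2DBD. In M the shares were 90.4%, 15.1%, 37.5% and 41.0%. By summed signal the median ranks in A were 97 for HSF2, and 1008, 1353.5 and 1103 for the constructs. By that measure all genes but Hspa9 lay above the middle of the list in A for HSF2. Those above it were Hspa8, Hspa1b and Hspa1a for anti-HSF2 and for Halo-H2DBD, and Hspa8 and Hsph1 for anti-HA. Summed signal grows with width, and the HSF2 intervals of Hspa8, Hspa1b and Hspa1a span 10517, 4944 and 3885 bp, against a list median of 2395 bp. Per base, above the list median in A were 6 genes for HSF2, 1 for anti-HSF2 (Hspa1b), 3 for anti-HA (Hspa8, Hspa9 and Hsph1) and 2 for Halo-H2DBD (Hspa8 and Hspa9). Hsph1, with the most endogenous HSF2 in A, was thus below the list median there for 2 of the 3 construct signals, while Hspa8 had the highest anti-HA signals of the family in A. Related families showed a gap too. The HSP90 list had 92.1% for HSF2 in A, against 23.7%, 52.7% and 50.6% for the constructs in the same order, and the chaperonins had 67.6% against 16.6%, 49.1% and 47.6%.

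HSF2 signal was also divided by construct signal site by site, and only ranks are given, since the level of such a ratio depends on the scaling of each experiment. Since HSF2 is its numerator, a site with much HSF2 tends to rank high, and Hsph1 and Hspa8 ranked 6 and 14 for HSF2 in A. Their ranks in the ratio are therefore no separate result about the constructs. For Halo-HSF2 with anti-HSF2 in A, Hsph1 ranked 10 and Hspa8 31 of 2122 sites, and in M they ranked 16 and 8 of 2134. With anti-HA they ranked 15 and 78 in A and 10 and 19 in M, of 2135. For Halo-H2DBD they ranked 2 and 35 in A, of 2135, and 33 and 21 in M, of 2134. Hspa9 was the gene nearest to the middle of the list in A, with 65.9%, 55.5% and 56.5% of sites lower for the 3 constructs. Hspa4l had 89.9%, 88.9% and 90.0% lower in A and 88.0%, 38.1% and 49.4% in M.

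Over all sites, the Spearman correlation of HSF2 with the constructs was 0.17, 0.075 and 0.072 in A and 0.36, 0.34 and 0.34 in M, in the order anti-HSF2, anti-HA and Halo-H2DBD. The sites share their libraries and intervals of unequal width, so these are descriptions. Among the 50 sites with the most HSF2 in A, the median share of sites with lower construct signal in A was 80.7%, 75.8% and 68.0%, and 36, 34 and 31 of them lay above the list median. Most of these sites thus also lay above the middle of the list for the constructs in A. Hsph1, which is 1 of these 50, had 35.2%, 57.4% and 22.3%. Hspa8, also 1 of them, had 44.7%, 75.9% and 69.4%. In M the 50 sites had medians of 52.1%, 64.2% and 69.2%, with 28, 32 and 28 above the list median. Hsph1 in M, at 53.2%, 49.6% and 71.4%, lay closer to these medians than in A for all 3 construct signals. Hspa8 in M, at 24.0%, 57.7% and 42.6%, lay further from them than in A for anti-HA and Halo-H2DBD.

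**Figure D4:**
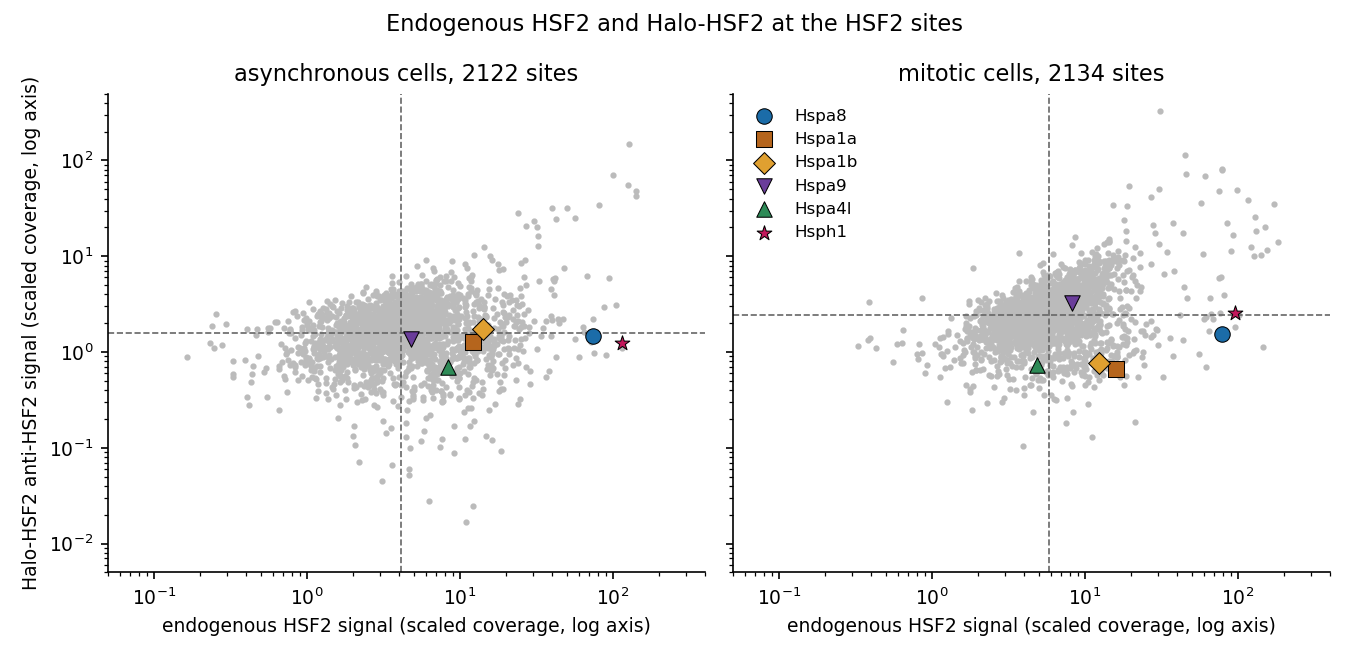
Endogenous HSF2 signal against Halo-HSF2 signal with anti-HSF2 at each HSF2 site (grey) on log axes, for asynchronous and mitotic cells, with the chaperone genes named and list medians dashed. Hsph1 and Hspa8 lie far along the HSF2 axis and near the middle or lower part of the tagged range, and sites at 0 are left out.

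**Figure D5:**
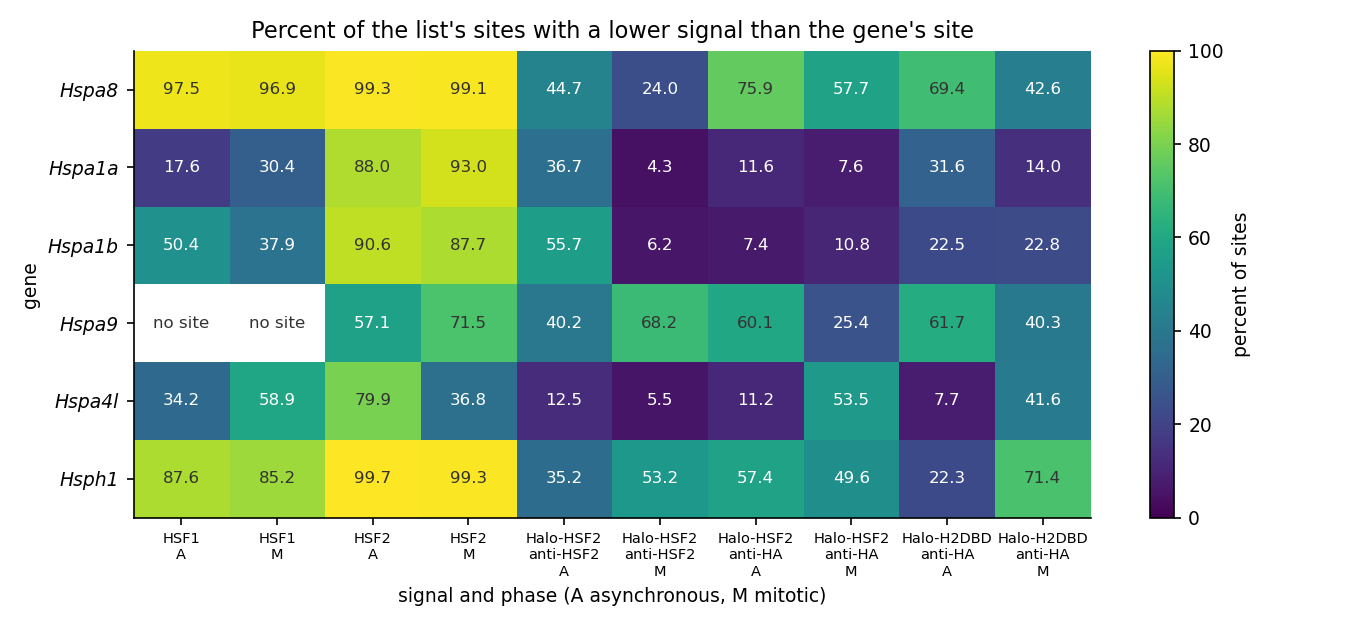
Percent of sites of the list with a lower signal than each gene, for every signal in asynchronous and mitotic cells. Endogenous HSF2 stands above the middle of the list at each of the 6 genes except Hspa4l in M, and the tagged proteins mostly stand lower.

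The truncated and full-length proteins, both measured with anti-HA, can be compared by position. In A, log2 of Halo-H2DBD over Halo-HSF2 was 1.13 at Hspa1b and 1.06 at Hspa1a, with 94.9% and 94.1% of sites lower and a list median of 0.29. Hsph1 was at the other end at −0.49, with 3.14% lower. Hspa4l at 0.27, Hspa9 at 0.27 and Hspa8 at 0.01 lay between. In M, where the list median was −0.18, Hsph1 was at 0.34 with 88.1% lower, so it lay near opposite ends of the list in the 2 phases. Hspa1b was at 0.21, Hspa9 at 0.14, Hspa1a at 0.10, Hspa4l at −0.40 and Hspa8 at −0.48.

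Other chaperone genes were counted by family. Of 6 other HSP70 superfamily genes, only Hspa1l had sites, and these are the intervals of Hspa1a. Over all protein-coding genes the shares with a site were 4.53% for HSF1 and 8.32% for HSF2. Of 21 partners of the HSP70 cycle, J proteins and exchange factors among them, 7 had an HSF1 site and 8 an HSF2 site. Their HSF1 sites had a median log2 M/A of −0.57 and their HSF2 sites one of 0.44. Before centring, 7 of 8 HSF2 values were above 0, against 72.3% of all HSF2 sites. Centring, which subtracts −0.59 and 0.71, leaves almost no HSF1 difference and turns the HSF2 median negative. Highest in HSF2 were the J protein genes Dnajb1 (47.2 in A, 61.9 in M) and Dnaja1 (31.7 and 37.9). St13, which encodes the cochaperone HIP, was highest in HSF1 (53.8 and 36.7), above Hspa8.

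Of 13 HSP90 and co-chaperone genes, 7 had an HSF1 and 7 an HSF2 site, against the same 4.53% and 8.32% of genes, with medians of −0.59 and 0.60. Of these HSF2 sites, 4 of 7 were higher in M before centring, against 72.3% of all HSF2 sites. Here too centring leaves almost no HSF1 difference and turns the HSF2 median negative. Stip1, which encodes the HSP70 and HSP90 adaptor HOP, had HSF2 signals of 90.8 in A and 147 in M. Hsp90ab1 had 104 and 102. Of 10 chaperonin genes, 8 had both, against the same shares of all genes, at 7 distinct sites of each factor with medians of −0.63 and −0.17. For HSF2, 3 of these 7 sites were higher in M before centring. Centring leaves almost no difference in the HSF1 median of the chaperonins and makes their HSF2 median more negative. Hspd1 and Hspe1, mitochondrial chaperonin genes sharing an interval, had HSF2 signals of 71.9 and 96.6. HSF2 at Hsph1 in A (114) was above all of these, while in M Stip1 and Hsp90ab1 were above Hsph1 (96.6).

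The sites most like Hsph1 were sought over 1555 candidate sites by the distance between log2 signals, here with 0.1 added to each signal. The distance was taken over 8 columns, HSF2 and the 3 constructs in both phases. The nearest was Spo11, a meiotic recombination gene, at a distance of 0.89, followed by Hspd1 and Hspe1 at 1.43, Hsp90aa1 at 1.56, Stip1 at 1.59 and Hspa8 at 1.60, with a median distance of 6.71. At Spo11, HSF2 signal was 115 in A and 69.2 in M, and Halo-HSF2 signal with anti-HSF2 was 1.09 and 2.20.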

How the data were processed

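Coverage signal for endogenous HSF1, HSF2 and SOX2, for Halo-HSF2 and for Halo-H2DBD was taken from the tables the authors deposited. Per the methods, the authors aligned reads to mm10 with Bowtie2, kept duplicates and scaled coverage by Drosophila spike-in reads. The column names mark the tracks as means, taken here as means over the 2 replicates. Ranks are of signal per base, with ranks of mean times width given beside some. The tables carry no read totals, and the totals the paper lists for anti-HA libraries were not used. The methods state that the scaling set the asynchronous sample to 1, whereas the scaling values legible for asynchronous anti-HA libraries differ from 1. Whether that step was applied to the tracks used is unclear. The 7 other conditions (HSF2 in knockout cells, wild type mixes, IgG and the HA control) were not analysed. All 9 listed genes were named, with up to 3 genes of each family list by highest signal. The members and lists were chosen with earlier results of these data known. No test was made, since the tables hold averages of the replicates. Alternatives were other windows and starts, pseudocounts, centring, a stricter site list, the means in the deposited site lists and other element definitions. Leaving out Hspa1a and Hspa1b, allowing 1 base to differ, and the site-list means for the difference of the factors were chosen after seeing the data. Python 3.11.15, numpy 2.4.6, pandas 2.3.3, pysam 0.24.0, Biopython 1.88 and matplotlib 3.10.9 were used, and the code was tested on simulated data.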

Additional observations from a re-analysis of the deposited data

How the results depend on the processing

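No paired analysis was possible from the tables used, because their columns hold the authors' averages of replicates. Leaving out each replicate in turn could not be run on them for the same reason. Alternatives were compared with a tolerance of 0.1 on the log2 scale and 1.5-fold for counts. Of 47 alternatives for counts and medians, 29 gave the same value, 14 moved it and 4 reversed its sign. Genes with an HSF1 site numbered 2 in place of 5 in the stricter list (sites with phase-averaged signal under the list median dropped). The HSF1 median of −0.74 became −0.14 centred and −1.34 with the means of the site list, and the HSF2 median of −0.05 became −0.76 centred. The anti-HSF2 median of 0.08 became −0.44 centred, 1.26 in the stricter list (Hspa9 only) and 0.57 without Hspa1a and Hspa1b. The anti-HA median of 0.44 became 0.23 with 1 added, −0.26 centred, 0.21 in the stricter list and 0.21 without Hspa1a and Hspa1b. The Halo-H2DBD median of −0.12 became −0.32 in the stricter list and 0.41 without Hspa1a and Hspa1b. HSF2 minus HSF1 went from 0.49 to −0.81 centred and 0.60 with the means of the site lists, where Hspa4l turned from −0.85 to 0.60. HSF2 sites with an element numbered 0 with 4 units, 6 with 2 units and 6 with up to 1 base different, in place of 3, where 1.13%, 70.3% and 49.2% of all HSF2 sites held one. Leaving out Hspa1a and Hspa1b, the looser element and the site-list means for that difference were chosen after seeing the data. Of 98 alternatives for single genes, 53 were the same, 36 moved and 9 reversed. Centring reversed Hspa1a for HSF1 (0.50), Hspa1a (−0.33) and Hspa8 (−0.61) for HSF2, Hspa4l (−0.44) and Hspa8 (−0.45) for anti-HSF2, and Hspa1a (−0.20), Hsph1 (−0.31) and Hspa8 (−0.65) for anti-HA. The means of the site list reversed Hspa4l for HSF1 (−1.34) and moved Hspa8 to −1.59, Hsph1 to −1.48 and Hspa1b to −0.67. The cause was not tested.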
